A study of Mus musculus with 21 samples.

Results

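Restored TGF-β signalling was examined by setting 3 libraries of ZBTB18-overexpressing mouse breast cancer cells, given back the TGF-β receptor TGFBR2 and treated with TGF-β1, against 3 libraries of the same parent line carrying an empty vector. These are 6 of the 21 libraries of the series. The genes followed were the 737 of 15432 tested (4.78%) that were at least 2-fold lower with ZBTB18 overexpression than with empty vector and passed the test used throughout. Each was placed by whether its level with receptor and ligand exceeded the empty vector level, returned to it or stayed below it.

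All groups used here derive from E0771, a mouse breast cancer cell line, marked with GFP. The empty vector group (E0771GFP-EV) had no added gene. The ZBTB18 group overexpressed ZBTB18, and the 2 receptor groups carried that overexpression plus TGFBR2 under a doxycycline-inducible promoter. Both received doxycycline (1 mg/mL as the labels give it), with vehicle or with TGF-β1 at 2 ng/mL. The untreated parental line, E0771GFP, served as a second reference. Its replicate 1 had 14% of counts on the gene model Gm42418, against 0.0918% and 0.0595% in replicates 2 and 3. This library stayed in the main fit. Each group had 3 libraries of polyA-enriched RNA, the labels name a single line for each genotype, and the length of treatment is not given in the sources used here. The group labels name doxycycline only for the receptor cells, so ZBTB18, the receptor, doxycycline, TGF-β1 and any other difference between the lines cannot be told apart in the comparison with empty vector.

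TGF-β ligands bind TGFBR2, which recruits and phosphorylates TGFBR1, and the active pair phosphorylates SMAD2 and SMAD3. These join SMAD4, enter the nucleus and bind short DNA sequences near target genes, often beside factors of the AP-1 family. In carcinoma cells the pathway is known for raising matrix, adhesion and protease genes and its own feedback inhibitors. ZBTB18 is a zinc finger protein that represses transcription.

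The short sequence CAGAC, with its complement GTCTG, is the SMAD binding element. It stands in capitals in the 250 bases before the RefSeq start of the receptor gene and of a pair of TGF-β response genes. The pair is Col7a1, which exceeded the empty vector level, and Tgfbi, which returned to it. Sequences are from RefSeq, build GRCm38.p6, written 5′ to 3′ on the strand of the gene. The windows are chr9:116175364-116175613 on the minus strand for Tgfbr2, chr9:108953336-108953585 on the plus strand for Col7a1 and chr13:56609336-56609585 on the plus strand for Tgfbi.
Tgfbr2: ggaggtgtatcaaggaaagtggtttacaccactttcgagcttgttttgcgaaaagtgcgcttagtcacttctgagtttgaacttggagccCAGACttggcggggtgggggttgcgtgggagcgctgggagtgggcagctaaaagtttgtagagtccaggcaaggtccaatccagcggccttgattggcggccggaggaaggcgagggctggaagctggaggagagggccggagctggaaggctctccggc
Col7a1: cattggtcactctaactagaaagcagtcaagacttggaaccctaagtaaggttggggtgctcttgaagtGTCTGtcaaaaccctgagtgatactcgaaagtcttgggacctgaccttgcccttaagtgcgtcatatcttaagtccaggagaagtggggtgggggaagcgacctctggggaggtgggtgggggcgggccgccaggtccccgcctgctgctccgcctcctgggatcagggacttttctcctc
Tgfbi: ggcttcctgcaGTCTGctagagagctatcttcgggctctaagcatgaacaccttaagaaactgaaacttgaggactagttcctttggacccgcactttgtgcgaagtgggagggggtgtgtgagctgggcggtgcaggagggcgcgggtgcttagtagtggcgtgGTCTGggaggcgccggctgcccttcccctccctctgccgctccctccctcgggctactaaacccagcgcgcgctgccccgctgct
The element was found once in the windows of Tgfbr2 and Col7a1 and 2 times in that of Tgfbi, on either strand. It is common: 42.1% of 27025 RefSeq windows of the same length held it, and so did 43.1% of the 497 lowered genes with an entry. By the classes given below, CAGAC was in 57.1% of 35 windows of genes that exceeded and 22.2% of 36 that returned. It was in 48.8% of 43 partly recovered, 43.5% of 322 not recovered and 41% of 61 not placed. These differences were not tested. The AP-1 site TGAGTCA was in 4.43% of all windows and 6.84% of those of lowered genes, and the ZBTB18 core ACATCTG in 3.8% and 3.62%, both strands searched. Over the 10268 tested genes with an entry, the background of the lowered genes, the shares were 40.6% for CAGAC, 3.36% for TGAGTCA and 2.19% for ACATCTG. Both longer motifs were thus at a higher share in lowered genes than in tested genes, which was not tested. None of the 3 windows shown held either of these. A match of letters is a description and not a binding site.

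Library totals ranged from 36052482 to 80780775 counts with empty vector and from 44090878 to 79782688 with receptor and TGF-β1. The share of counts on the mitochondrial genome was 0.861 to 1.07% in the first group and 0.525 to 0.68% in the second. Krt8, a keratin of mammary carcinoma, was read at 290 CPM with empty vector and 342 CPM with receptor and TGF-β1, whereas Cdh1 had 9 and 6 reads in all. Markers of blood and immune cells summed to 18.8 to 20.2 CPM with empty vector and 15 to 20.2 CPM with TGF-β1, with Cd3e at 0 reads in both, and endothelial markers summed to 36.6 to 39 and 35 to 39.2 CPM. Of the 20 blood markers 7 could be tested, 3 higher and 2 lower than empty vector. Of all genes tested, 22.3% were higher and 23% lower. Of the 12 endothelial markers 8 could be tested, 1 higher and 2 lower, and of the 12 lung epithelial markers 3, of which 1 was lower and which summed to at most 2.65 CPM. In the 12 fibroblast markers, 6 tested, 1 was higher and 2 were lower, the sum was 769 to 846 and 558 to 691 CPM, and Dcn and Lum had at most 1 read. Levels are given as CPM, read counts scaled to a common library size after TMM normalisation. In such bulk RNA, fewer cells with a transcript and less of it per cell cannot be told apart.

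The receptor and repressor transcripts matched the labels. Tgfbr2 (ENSMUSG00000032440.13, chromosome 9, 116084293 to 116175360 on mm10) read 26.98, 26.6 and 26.1 CPM in the empty vector libraries and 1.47, 1.97 and 1.77 CPM with ZBTB18. It read 613, 584 and 616 CPM in the receptor cells with TGF-β1. All receptor libraries stood far above every empty vector library, and Tgfbr2 was 22.7-fold higher (log2 fold change 4.51, SE 0.093, adjusted p = 4.68e-19 by edgeR's quasi-likelihood test with Benjamini-Hochberg adjustment, as are all adjusted p-values below). Nothing in the labels says that the libraries of a group came from separate cultures, so p-values measure only the spread between these samples. Reads of the added Tgfbr2 and of the endogenous gene are summed in these counts, so whether the endogenous gene came back was not tested. Zbtb18 (chromosome 1, 177442351 to 177450764) read 24.1, 25.6 and 25.7 CPM with empty vector and 90.4, 96.8 and 98.5 CPM with TGF-β1. It was thus 3.79-fold above empty vector in the receptor cells (adjusted p = 5.9e-12), against 113 ± 9.64 CPM (mean ± SD of 3 libraries, as are all such pairs below) in the ZBTB18 group. Tgfbr1, the partner receptor, was lower than with empty vector, at 20.8 ± 1.75 against 29.1 ± 2.5 CPM (log2 fold change -0.49, adjusted p = 0.000374).

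With receptor and ligand restored, most genes that ZBTB18 had lowered did not come back. Of the 737, 461 (62.6%) stayed below empty vector with no called rise over the ZBTB18 level, among them Plau, Vcan, Mmp2 and Nsd1, and 63 (8.55%) stayed below after a partial rise, among them Ptk7 and Abcg2. Another 57 (7.73%) returned, among them Skil and Tgfbi, and 46 (6.24%) exceeded the empty vector level, among them Ccn2, Ccn4 and Col7a1. For the last 110 (14.9%), Tgm2 included, the libraries could not place the gene. Exceeded and below mean an adjusted p under 0.05 against empty vector, and returned means no call and a 95% interval of the fold change within 2-fold either way. The median log2 fold change against empty vector was -1.68 over the 737 genes and 0 over all genes tested, of which 22.3% were called higher and 23% lower than empty vector. The same class rule put 22.3% of all genes above empty vector, 41.2% at its level, 0.629% below after a partial rise, 22.4% below with no called rise and 13.5% in no class. Both the choice of genes and the classes use the empty vector libraries, so the counts describe the genes and carry no test of their own.

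**Figure D1:**
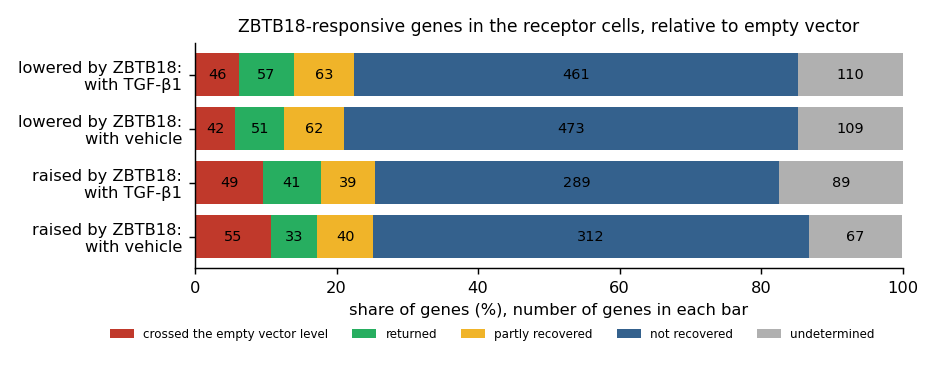
Share of genes (x axis, percent) in each class, for the 737 genes lowered and the 507 raised by ZBTB18, in the receptor cells with TGF-β1 and with vehicle; the number in each block is its count of genes. The block of genes not recovered is the widest of each bar, 461 of the lowered genes with TGF-β1 and 473 with vehicle.

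On the log2 scale, 241 lowered genes (32.7%) lay nearer to empty vector than to the ZBTB18 group, 168 (22.8%) lay between but nearer to ZBTB18, and 328 (44.5%) lay at or below the ZBTB18 level. Of the 461 genes not recovered, 328 read at or below the ZBTB18 level and 133 above it without a call. In 153 of the 461 the level with TGF-β1 was called lower than with ZBTB18 alone, as in 16.6% of all genes. The class by definition holds no gene with a called rise over ZBTB18, so these shares are not alike. The middle quartiles of the fold change against empty vector ran from -3.44 to -0.67. At the edge of the 2-fold rule, Padi2, Gjc1 and Zfp882 were just inside, and Ccn1, Pnp2 and Gimap9 just outside. Ccn1, a matricellular relative of Ccn2, read 26.7 CPM with empty vector, 13.4 with ZBTB18 and 31.4 with TGF-β1. The 507 genes (3.29%) that ZBTB18 had raised showed a like division, with 289 (57%) not recovered, 39 partly, 41 returned, 49 across the empty vector level and 89 not placed.

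**Figure D2:**
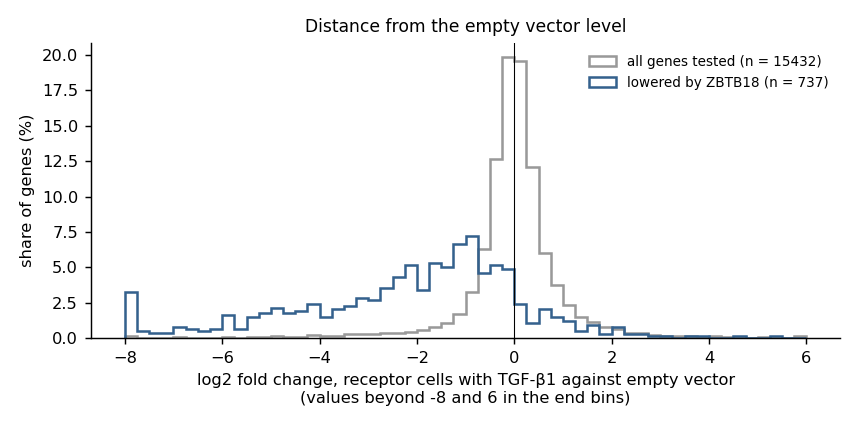
Distribution of the log2 fold change of receptor cells with TGF-β1 against empty vector (x axis) as a share of genes (y axis, percent), for all 15432 genes and for the 737 lowered by ZBTB18. The lowered genes spread to the left, with a median of -1.68, while all genes centre on 0.

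The reference bears on these shares. Of the 737 lowered genes, 39.9% were called higher with empty vector than in the parental line, as were 47.9% of those not recovered and 28.9% of all genes. The same empty vector libraries chose these genes and set their classes, so part of this excess over all genes is built in. When lowered genes were chosen against the parental line in place of empty vector, 2076 genes qualified. Of these, 509 (24.5%) were not recovered, 464 (22.4%) returned and 302 (14.5%) exceeded empty vector. The classes were still set against empty vector. A gene lowered only against the parental line can thus count as returned without any rise, so these shares are not like those above. For the 470 genes lowered against both references, 275 (58.5%) were not recovered, 38 returned and 33 exceeded.

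Ccn2 (ENSMUSG00000019997.11, chromosome 10, 24595442 to 24598683), which encodes the matricellular growth factor CTGF and is a standard readout of TGF-β, exceeded its empty vector level. It read 6.16, 5.28 and 5.02 CPM with empty vector, 1.00, 0.747 and 0.912 with ZBTB18, 2.30, 4.64 and 4.52 with receptor and vehicle, and 12.6, 18.3 and 13.2 with receptor and TGF-β1. The TGF-β1 libraries lay above all the others of these groups. Against empty vector the rise was 2.67-fold (log2 fold change 1.42, SE 0.368, adjusted p = 0.00423). The parental libraries read 3.31, 7.02 and 9.40 CPM, also below those with TGF-β1.

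Ccn4 (ENSMUSG00000005124.10, chromosome 15, 66891320 to 66923201), another member of that matricellular family, behaved alike at higher counts. Its libraries read 21.1, 21.5 and 17.9 CPM with empty vector, 3.01, 2.698 and 2.57 with ZBTB18, 12.6, 16.6 and 19.5 with vehicle, and 60.1, 69.9 and 65.4 with TGF-β1. No TGF-β1 library overlapped another group, and the level was 3.23-fold that of empty vector (1.69 on the log2 scale, SE 0.174, adjusted p = 9.39e-08). Of the rise from ZBTB18, part was present with vehicle (log2 fold change 2.55) and a further 2.01 came with TGF-β1 (adjusted p = 9.65e-07).

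Col7a1, the collagen of anchoring fibrils, did not rise with the receptor alone. It read 45.0, 41.9 and 51.7 CPM with empty vector, 23.3, 26.5 and 18.2 with ZBTB18, 15.8, 21.3 and 21.8 with vehicle, and 88.3, 90.9 and 97.3 with TGF-β1. The vehicle libraries overlapped those of the ZBTB18 group, and those with TGF-β1 stood above every other. Col7a1 ended 2-fold above empty vector (1.00 on the log2 scale, SE 0.182, adjusted p = 0.000187), and 2.24 above vehicle on the log2 scale (SE 0.19, adjusted p = 1.46e-06).

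Tgm2 (ENSMUSG00000037820.15, chromosome 2, 158116402 to 158146436), the tissue transglutaminase, could not be placed. Its libraries read 94.3, 106 and 100.3 CPM with empty vector, 7.98, 9.96 and 19.8 with ZBTB18, 20.9, 45.8 and 96.2 with vehicle, and 38.5, 65.0 and 110 with TGF-β1. The receptor libraries spread from well below empty vector to its level, and the groups overlapped. The log2 fold change against empty vector was -0.49 (SE 0.46, 95% interval -1.47 to 0.49, adjusted p = 0.408). Against ZBTB18 the rise was 2.50 (adjusted p = 0.00121), and against vehicle 0.40 (adjusted p = 0.833, or 0.398 with the replicate pairs as a block). Without the filter on low counts the adjusted p against empty vector became 1.6e-05 at a fold change of -0.48. Tgm2 shares its position with Rprd1b on the opposite strand, and the strand setting of the counting is not stated.

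**Figure D3:**
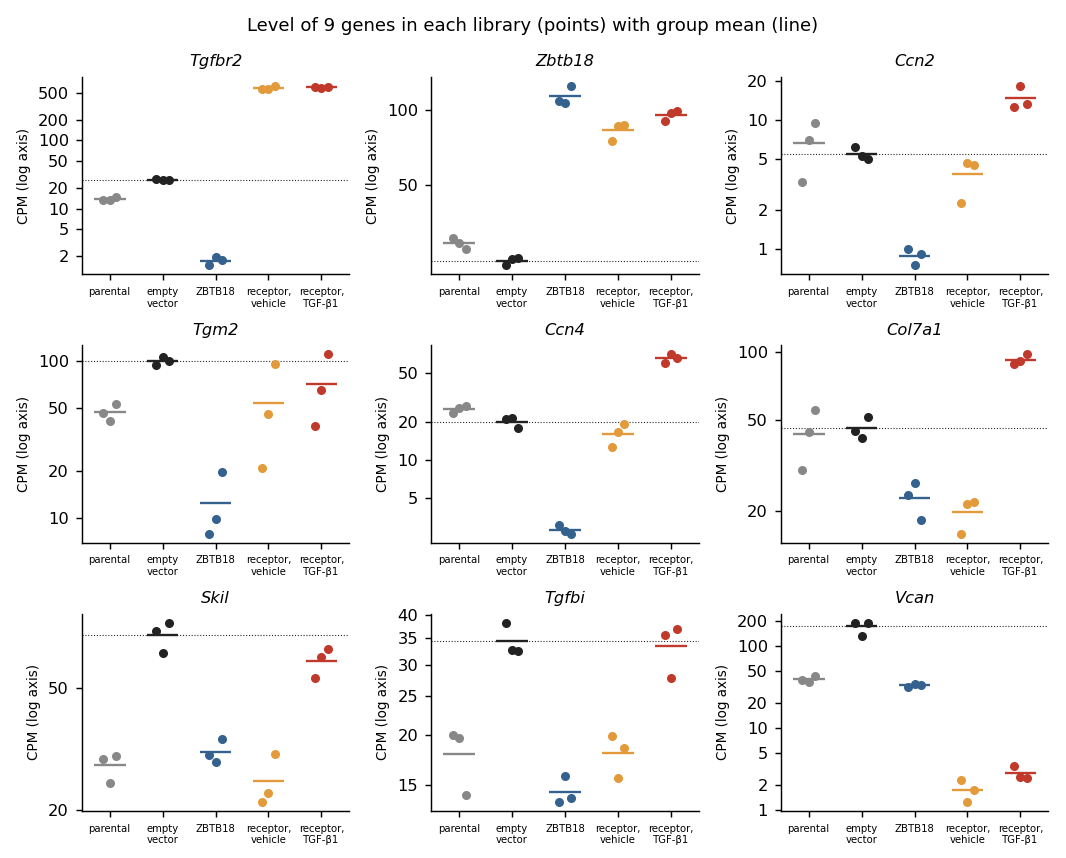
CPM (y axis, log scale) of Tgfbr2, Zbtb18, Ccn2, Tgm2, Ccn4, Col7a1, Skil, Tgfbi and Vcan in each library of the 5 groups; points are libraries, lines group means and the dotted line the empty vector mean. Ccn2, Ccn4 and Col7a1 end above the dotted line with TGF-β1, Skil and Tgfbi come near it, and Vcan stays below.

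Skil, whose product SnoN holds back SMAD signalling and is itself induced by it, returned. It read 76.7, 64.9 and 81.5 CPM with empty vector, 30.3, 28.6 and 34.1 with ZBTB18, 21.3, 22.8 and 30.6 with vehicle, and 53.7, 62.9 and 66.9 with TGF-β1. The TGF-β1 libraries lay above those with vehicle and overlapped the low end of the empty vector group (log2 fold change -0.28, 95% interval -0.54 to -0.03, adjusted p = 0.0687). Leaving out empty vector replicate 2 made Skil a lower call (-0.37, adjusted p = 0.0321), as did dropping the filter on low counts, fitting the 6 libraries alone and adding the replicate number as a block, with adjusted p between 0.0379 and 0.0432.

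Tgfbi, an adhesion protein of the matrix, returned as well. Its libraries read 38.2, 32.6 and 32.4 CPM with empty vector, 13.6, 15.8 and 13.9 with ZBTB18, 19.9, 15.7 and 18.5 with vehicle, and 35.5, 27.7 and 36.7 with TGF-β1. The TGF-β1 and empty vector libraries overlapped (adjusted p = 0.904, 95% interval -0.59 to 0.50). Every TGF-β1 library lay above those with vehicle, though this difference did not pass (log2 fold change 0.89, adjusted p = 0.103). Gsn, the actin-severing protein gelsolin, was back at 546 ± 91.3 CPM with vehicle and 492 ± 71.7 with TGF-β1, against 496 ± 15.7 with empty vector and 157 ± 19.6 with ZBTB18.

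Plau, the urokinase protease, did not recover. It read 55.7, 37.2 and 68.9 CPM with empty vector, 10.3, 9.84 and 11.3 with ZBTB18 and 9.76, 10.6 and 14.4 with TGF-β1. The latter groups overlapped (adjusted p = 0.766), and the log2 fold change against empty vector was -2.22 (SE 0.314, adjusted p = 2.61e-05). Plaur, the urokinase receptor, was not among the 737; it read 99.2, 53.1 and 112 CPM in the same groups.

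Across the list of TGF-β response genes, 33 of 40 could be tested, and Fn1, Pmepa1, Timp3, Postn, Thbs1, Cdkn2b and Lox had too few reads. With receptor and TGF-β1, 10 of the 33 were higher and 8 lower than empty vector (all genes 22.3% and 23%). The list's median log2 fold change was 0.17. Against ZBTB18 20 were higher and 3 lower (all genes 15.9% and 16.6%), with a median of 0.70, and against vehicle 11 were higher (1.26% of all genes). On log2(TPM + 1) values 5 members, in place of 8, were lower than empty vector. Of the 10 members lowered at least 2-fold by ZBTB18, 3 exceeded empty vector (Ccn2, Ccn4, Col7a1), 2 returned (Skil, Tgfbi), 1 recovered in part, 2 did not recover (Plau, Pthlh) and 2 could not be placed (Tgm2, Ltbp2). The list was drawn up with results of these data known.

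Members of the list that ZBTB18 had not lowered by 2-fold also stood above empty vector. Bhlhe40, a transcriptional repressor, was at 300.3 against 85.5 CPM (log2 fold change 1.81, adjusted p = 2.91e-13), though it was lower with ZBTB18 alone, at 64.9 CPM (adjusted p = 0.00091). Its log2 fold change between TGF-β1 and vehicle was 0.51 (adjusted p = 0.00181). Col1a1, a fibrillar collagen, read 1.34, 1.89 and 1.295 CPM with empty vector, 11.03, 11.1 and 7.91 with vehicle, and 42.3, 43.1 and 31.1 with TGF-β1, 26-fold above empty vector (4.70 on the log2 scale, SE 0.348, adjusted p = 2.64e-09). The integrin subunit Itgb5 was at 150.4 against 78.2 CPM (0.94) and the latency protein Ltbp3 at 202 against 116 CPM (0.80). Acta2, smooth muscle actin, and Snai1, an EMT factor, were lower than empty vector, at 38 against 139 CPM (-1.86) and 14.6 against 23.7 CPM (-0.70). Neither passed between TGF-β1 and vehicle (adjusted p = 0.592 and 0.275). Acta2 read 139 CPM with ZBTB18 alone, 51.8 with vehicle and 36.8 in the parental line, so its level with TGF-β1 was near the parental one.

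Among ligands, receptors and latency proteins, 3 of 14 tested were higher and 5 lower than empty vector (all genes 22.3% and 23%). Apart from Tgfbr2, the higher ones were Ltbp3 and Lrrc32, which presents latent TGF-β on the cell surface (10.7 against 1.42 CPM). The lower ones included the co-receptor Tgfbr3 (27 against 89.6 CPM, log2 fold change -1.73) and Ltbp1 (18 against 97.8 CPM, -2.44), both near empty vector with ZBTB18 alone, at 73 and 84.5 CPM. Between TGF-β1 and vehicle Ltbp3 was higher (0.62, adjusted p = 0.00164), while Lrrc32, Tgfbr3 and Ltbp1 did not pass (adjusted p = 0.852, 0.16 and 0.345). Tgfb1, the ligand gene, read 102 against 97.3 CPM (adjusted p = 0.661). Of 15 SMAD genes and regulators 5 were higher and 4 lower; Smad2 was lower (56 against 70.1 CPM, -0.32), Smad3 (65.5 against 66.8 CPM) and the feedback inhibitor Smad7 (23.4 against 26 CPM) did not pass, and Smad2 also failed to pass on either log2 TPM scale.

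The BMP branch, which acts through other SMAD proteins and is read out by the ID genes, lay lower. Of 12 members tested 7 were lower and 3 higher than empty vector (all genes 23% and 22.3%). Id1 was at 28.7 against 93.7 CPM (log2 fold change -1.71), Id2 at 0.589 against 23 CPM (-5.24) and Id3 at 5.85 against 85.1 CPM (-3.87). None of these had passed with ZBTB18 alone (15.5 CPM for Id2, adjusted p = 0.109), and each was as low with vehicle, at 32.3, 0.716 and 7.23 CPM.

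The other genes that exceeded empty vector had varied roles. Bdkrb2, the bradykinin receptor, read 6.05, 5.90 and 7.06 CPM with empty vector and 12.9, 14.2 and 14.5 with TGF-β1, but already 11.3, 13.1 and 12.6 with vehicle and 10.8, 11.8 and 12.9 in the parental line. Elfn2 was at 15.2 ± 2.3 against 7.27 ± 0.763 CPM and Inava at 21.4 ± 1.85 against 8.62 ± 0.778 CPM. Only the latter of this pair also differed between TGF-β1 and vehicle (log2 fold change 1.34, adjusted p = 0.00936). Rap1gap2, an inactivator of the GTPase RAP1, was at 7.65 ± 2.68 CPM with TGF-β1, 0.765 with vehicle and 0.55 with empty vector (3.77 against empty vector, adjusted p = 6.13e-08).

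Among genes that returned, Mfng, a fringe that modifies Notch receptors, read 11.6, 14.6 and 12.1 CPM with empty vector, 1.41, 1.52 and 2.26 with ZBTB18 and 8.39, 10.7 and 13.3 with TGF-β1. Notch4, a Notch receptor, read 11.1, 6.70 and 14.4 CPM with empty vector, 2.92, 2.49 and 3.03 with ZBTB18, 3.85, 4.01 and 5.004 with vehicle and 10.8, 12.1 and 11.5 with TGF-β1. The first was up with vehicle already (16.3 CPM), the second with TGF-β1 over vehicle (log2 fold change 1.42, adjusted p = 0.000429). Other Notch genes lowered by ZBTB18 did not recover: the ligands Jag2 (0.38 against 4.71 CPM) and Dll1 (0.745 against 4.102 CPM) and the fringe Lfng (5.65 against 11.7 CPM). Parental Notch4 was 1.27 ± 0.0555 CPM, near the ZBTB18 level. Fam167a, Mgarp, Gdpd5 and Amotl2, an angiomotin of the Hippo pathway, returned too, at 4.74, 4.72, 42.5 and 27.1 CPM against 5.94, 6.08, 43.3 and 23.9 with empty vector.

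Targets of p53 and stress genes split in the same list. Gadd45b, Btg2 and Plk2, which slow the cycle or respond to damage, returned, at 15.5, 4.27 and 16.5 CPM against 13.8, 4.59 and 18.3 with empty vector. Pmaip1, the BH3-only death gene NOXA, was read 623 times with empty vector and 0 times with TGF-β1, at least 244-fold lower against a floor of 3 counts over the group. The death receptor Fas could not be placed (5.11 against 4.66 CPM), and Eda2r did not recover (0.147 against 0.641 CPM).

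Partial recovery was small in most of the genes with the deepest falls. Ptk7, a receptor-like kinase of Wnt signalling, read 27.3, 24.98 and 28.8 CPM with empty vector, 2.82, 3.82 and 3.87 with ZBTB18 and 5.17, 4.53 and 4.44 with TGF-β1. The drug transporter Abcg2 was at 2.83 ± 0.149 against 12.8 ± 0.927 CPM, and the palmitoyltransferase Zdhhc9 at 4.94 ± 0.634 against 14.8 ± 0.622 CPM. The complement protease genes C1s1 and C1rl were at 2.29 ± 0.848 and 1.82 ± 0.144 CPM, against 12.6 ± 1.06 and 7.94 ± 1.13. Both read higher with vehicle, at 4.46 ± 2.18 and 2.63 ± 0.263 CPM, though neither difference passed (adjusted p = 0.183 and 0.185, or 0.0888 and 0.217 with the replicate pairs as a block). The Follistatin-like gene Fstl1 was at 144 ± 9.17 against 244 ± 8.12 CPM.

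Genes that stayed down included several that fell below the ZBTB18 level. Vcan, the matrix proteoglycan versican, read 193, 134 and 193 CPM with empty vector, 31.8, 34.4 and 33.4 with ZBTB18, 2.33, 1.25 and 1.73 with vehicle and 3.44, 2.50 and 2.44 with TGF-β1. The receptor groups thus lay below every ZBTB18 library, and the log2 fold change against empty vector was -5.94 (SE 0.219, adjusted p = 5.87e-14). Parental Vcan was 39.6 ± 3.59 CPM. Mmp2, a gelatinase, had 1189 reads with empty vector and 1 with TGF-β1, a ratio of 1397 (95% interval 250.2 to 55210, counting error only). Its CPM was 8.44, 7.74 and 6.16 with empty vector and 0.29, 0.332 and 0.219 with ZBTB18. Nsd1, a histone methyltransferase, had 1707 and 2 reads (ratio 1003, interval 277 to 8285).

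Flrt2, a guidance receptor, Gspt2, a translation release factor, and the potassium channel partner Kcnip1 had 0 reads in the TGF-β1 libraries, at least 991-fold, 716-fold and 623-fold lower than empty vector. Gspt2 and Kcnip1 were also at 0 CPM with vehicle. With ZBTB18 alone the 3 genes stood at 1.01, 1.64 and 0.0829 CPM. Kcnip1 and the transporter gene Slc16a14 (20 CPM with empty vector, 0.0392 with ZBTB18, 0.0255 with TGF-β1) were also near 0 in the parental line, at 0.0076 and 0.246 CPM, whereas Flrt2 and Gspt2 read 6.95 and 19.3 CPM there. Anxa6 had 1586 and 2 reads (ratio 931.5, interval 257 to 7698), and Parp8 was at 0.676 ± 0.113 against 27 ± 2.13 CPM. Reads carry no molecular identifiers, so these bounds cover counting error only.

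**Figure D4:**
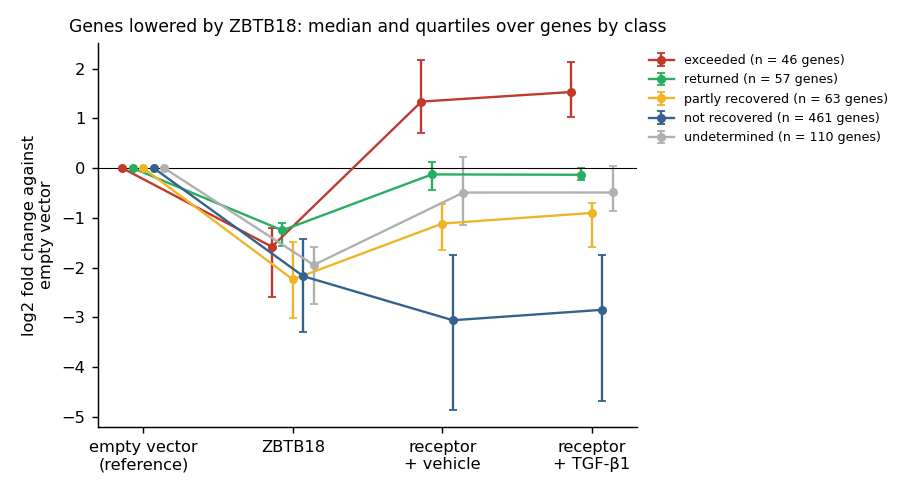
Median log2 fold change against empty vector (y axis) of the lowered genes of each class in the ZBTB18, vehicle and TGF-β1 groups (x axis); points are medians over genes and bars the quartiles. The medians of genes that exceeded are -1.58, 1.34 and 1.53 and those of genes not recovered -2.17, -3.06 and -2.85, so in each class the vehicle and TGF-β1 medians lie close together.

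The receptor cells given vehicle already had nearly the same distribution. Classed the same way with vehicle in place of TGF-β1, 42 of the 737 genes exceeded empty vector, 51 returned, 62 recovered in part, 473 did not recover and 109 could not be placed. Both sets of classes share the empty vector and ZBTB18 libraries. Against the ZBTB18 group, 230 lowered genes (31.2%) were higher with TGF-β1 and 221 (30%) with vehicle, where all genes gave 15.9% and 19.5%. The lowered genes were chosen for low levels in these same ZBTB18 libraries, so part of that excess over all genes is built in.

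TGF-β1 against vehicle uses none of the libraries that chose the genes. In it 21 of the 737 were higher and 6 lower, 2.85% higher against 1.26% of all genes, where 0.654% were lower. Same-numbered vehicle and TGF-β1 libraries deviated together, and with these pairs as a block 19 were higher and 7 lower (1.09% and 0.518% of all genes). The counts fell when any single library of the vehicle, TGF-β1, empty vector or ZBTB18 group was left out. Without parental replicate 1 they rose to 22 higher and 9 lower. Without vehicle replicate 1 or 2, 9 were higher and 3 or 1 lower, and without vehicle replicate 3, 18 and 3. Without TGF-β1 replicate 1, 2 or 3, 12, 14 or 13 were higher and 2, 3 or 5 lower. Leaving out an empty vector or ZBTB18 library, which only shares the estimate of spread, gave 17 or 18 higher and 4 or 5 lower. The 21 included Ccn2, Ccn4, Col7a1, Skil, Notch4, Inava, Fam167a and Rap1gap2, all of which exceeded or returned. They also included genes that TGF-β1 lifted without bringing them back: the matrix glycoprotein Tnc (3.98 with TGF-β1, 1.87 with vehicle and 12.3 CPM with empty vector), the integrin subunit Itgb3 (19.3, 10.3 and 53.7 CPM) and the actin-binding drebrin, Dbn1 (6.23, 2.77 and 28.3 CPM). For Itgb3 and Dbn1 the level with TGF-β1 remained at or under that with ZBTB18 alone, 23.8 and 13.95 CPM. Those lowered were Jag2, Tmem176a, Arhgdib, B3gnt9, Dixdc1 and Afap1l2. With the pairs as a block Jag2 and Afap1l2 no longer passed (adjusted p = 0.069 and 0.0603). These genes were picked out after their values were seen.

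The matrix and protease lists leaned down against empty vector. The share of their lowered genes that did not recover, and that of cytokines, is to be read against 62.6% of all 737. Of 30 matrix genes 15 were lower and 9 higher (all genes 23% and 22.3%), with a median of -0.47. Against vehicle, by contrast, 8 of the 30 were higher with TGF-β1 and 0 lower (all genes 1.26% and 0.654%). Col3a1 (26.4 against 172 CPM, log2 fold change -2.702), Lamb1 (4.12 against 35.3 CPM, -3.10) and Nid1 (87.8 against 353 CPM, -2.01) were lower than empty vector beside Vcan. Against vehicle Lamb1 was higher with TGF-β1 (1.32, adjusted p = 0.00548), while Col3a1 and Nid1 did not pass (adjusted p = 0.236 and 0.644). Spp1, osteopontin (712 against 195 CPM, 1.87), and Bgn, biglycan (7.95 against 1.78 CPM, 2.16), were higher. Of the 7 matrix genes lowered by ZBTB18, 5 did not recover, Col5a3 among them (52.5 against 188 CPM). Of 24 proteases and inhibitors 11 were lower and 2 higher (1 without empty vector replicate 1 or 2), and of the 8 that ZBTB18 lowered, 5 did not recover, 1 did in part and 2, Mmp9 and Adamts4, could not be placed. Mmp9 read 14.8 ± 11.8 against 22.3 ± 4.45 CPM.

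Integrins were lower than empty vector in 7 of 12 and higher in 2 (all genes 23% and 22.3%). Of the 4 lowered by ZBTB18, Itga1 (10.2 against 45.7 CPM), Itgb3 and Itgb4, the hemidesmosome subunit (1.10 against 8.29 CPM), did not recover, and Itga7 did in part (1.47 against 4.01 CPM). Contractile genes were lower in 14 of 37 and higher in 3, with 9 lower when empty vector replicate 3 or TGF-β1 replicate 2 was left out. Mesenchymal genes and EMT factors were lower in 12 of 21 and higher in 1, S100a4 (314 against 56 CPM). The homeobox gene Prrx1 was at 3.84 against 76.4 CPM. Among cytokines and growth factors, 6 of the 10 lowered genes did not recover, such as Cx3cl1 (0.933 against 17.7 CPM), Ccl7 (1.86 against 25.9 CPM) and Csf1 (108 against 270 CPM).

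**Figure D5:**
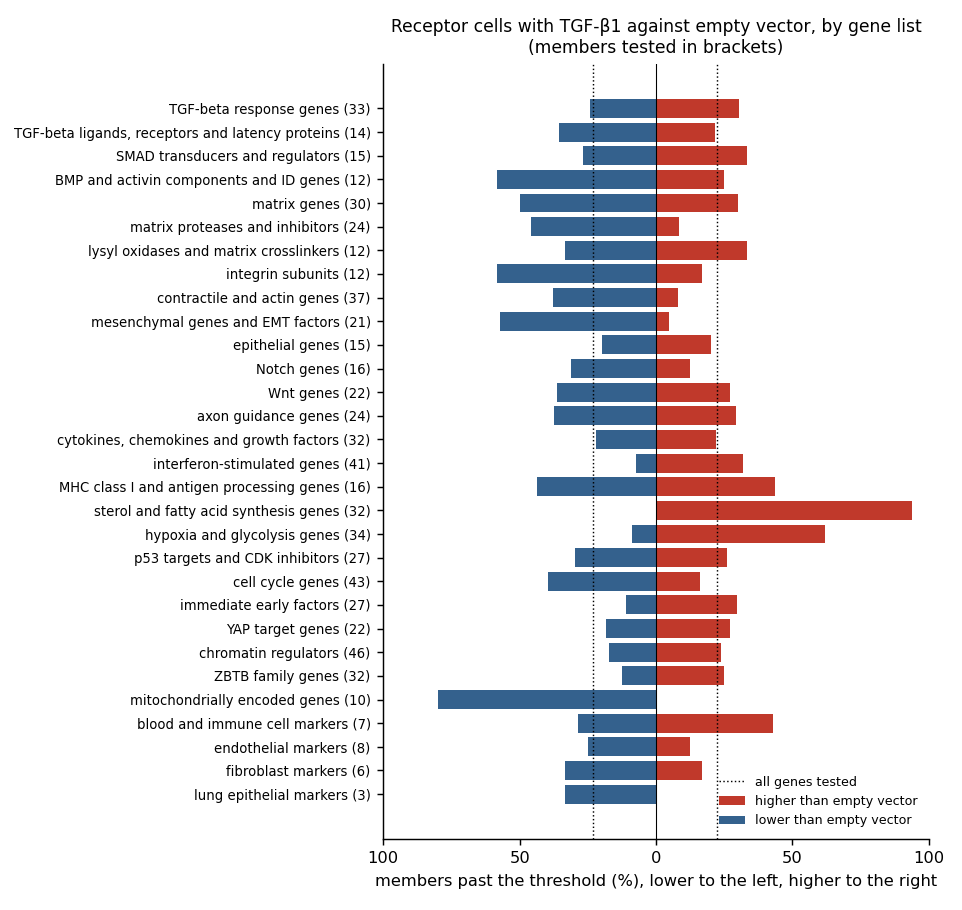
Share of the tested members of each of 30 gene lists (y axis, members tested in brackets) past the threshold in receptor cells with TGF-β1 against empty vector, lower to the left and higher to the right (x axis, percent); dotted lines mark all genes, 23% lower and 22.3% higher. Sterol and fatty acid synthesis genes stand out to the right with 30 of 32, and mitochondrially encoded genes to the left with 8 of 10.

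Some lists moved in genes that ZBTB18 had scarcely lowered. Sterol and fatty acid synthesis genes were higher than empty vector in 30 of 32, with a median of 1.83 (22.3% of all genes were higher and 23% lower). Fdft1, squalene synthase, was at 137 ± 19.6 against 17.1 ± 2.44 CPM (7.98-fold, adjusted p = 2.45e-08), and Sqle, squalene epoxidase, at 368 ± 53.5 against 70.4 ± 9.07 CPM (log2 fold change 2.39, adjusted p = 2.25e-10). They were as high with vehicle, at 148 and 397 CPM (adjusted p of TGF-β1 against vehicle 0.929 and 0.875). Hypoxia and glycolysis genes were higher in 21 of 34 and lower in 3. Car9, a carbonic anhydrase, read 0.351, 0.765 and 0.581 CPM with empty vector, 27.7, 34.1 and 30.3 with vehicle and 36.1, 36.6 and 29.2 with TGF-β1.

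Interferon-stimulated genes were higher than empty vector in 13 of 41 and lower in 3 (all genes 22.3% and 23%). With empty vector replicate 1 left out the count was 4, with replicate 2 or 3 it was 8, with TGF-β1 replicate 1, 2 or 3 left out it was 8, 6 or 9, and a fit of the 6 libraries alone gave 21. The median was 0.79, against -1.07 for ZBTB18 and empty vector. Cell cycle genes were lower in 17 of 43 and higher in 7, the 7 becoming 2 to 4 when any of the 6 libraries was left out, and Rrm2, a ribonucleotide reductase subunit, was at 184 against 348 CPM. Of 10 mitochondrially encoded genes 8 were lower, such as mt-Nd1 (355 against 874 CPM), with 5 and 4 lower without empty vector replicate 2 or TGF-β1 replicate 2. The part of this lower share in the other results was not tested. Between TGF-β1 and vehicle, 0 of the 41 interferon-stimulated, 0 of the 43 cell cycle and 0 of the 10 mitochondrially encoded genes were called. Of all genes 1.26% were higher and 0.654% lower in that comparison.

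The largest differences from empty vector over all genes were not confined to genes lowered by ZBTB18. Among the 8 highest, of genes at 5 CPM or more with libraries that did not overlap (true of 64.1% of all genes tested), were Ctsw, Dppa2, Car9, Slc2a4, Btnl7-ps, Scarf1 and Col1a1. Ctsw, a cathepsin gene, read 0.0753, 0.0547 and 0.0264 CPM with empty vector, 0.0222, 0.0186 and 0 with vehicle and 4.28, 6.53 and 9.28 with TGF-β1; it overlaps Fibp on the opposite strand, which read 47.5 and 51.2 CPM. Dppa2, a stem cell factor, was at 14.6 against 0.143 CPM but at 11.8 with ZBTB18 and 5.37 in the parental line. The 8 lowest were Flrt2, Gspt2, Kcnip1, Ctsh, Mmp2, Nsd1, Anxa6 and Slc16a14, all of the class not recovered.

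Calls against empty vector leaned to one side on some chromosomes. Of all genes 22.3% were higher and 23% lower. On chromosome 10 there were 93 higher and 294 lower of 720 tested, and on chromosome 13 there were 57 and 258 of 603. The median log2 fold changes there were -0.24 and -0.27. The same chromosomes leaned with ZBTB18 alone, 39 higher and 265 lower on the first and 19 and 239 on the second, where 14% and 14.5% of all genes were called. Chromosomes 5 (156 and 284 of 995) and 12 (70 and 179 of 542) also had more lower calls. Chromosomes 1 (297 and 135 of 913) and 17 (236 and 98 of 784) had more higher ones. Chromosome 19, with 537 tested, had 133 and 124 with TGF-β1 but 221 and 26 with ZBTB18 alone. Outside chromosomes 10 and 13, the only ones left out in this way, 406 of 644 lowered genes (63%) were not recovered. Differences in copy number between the lines were not tested.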

How the data were processed

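RNA-seq libraries of 7 groups of 3 were used. The submitters' processing notes name RSEM, STAR 2.7.1a, Trim Galore, GATK 4.1.2.0 and mm10, in no order; the annotation release and strand setting are not given in the sources used here. The authors deposited RSEM expected counts per gene and TPM for the same libraries. Expected counts were rounded (1.28% of values were not whole); 92 spike-in entries, which held 0 reads, were left out, and 99.29% of the 55573 gene IDs were found in GENCODE vM21.

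Genes passing filterByExpr (15432) were scaled by TMM and fitted over all 21 libraries with edgeR 4.0.16 in R 4.3.3 (robust quasi-likelihood test, 14 residual degrees of freedom, Benjamini-Hochberg over all genes, threshold 0.05). Limma 3.58.1 on log2 TPM and DESeq2 1.42.0 were alternatives. Lowered meant 2-fold below empty vector and called. Returned meant not called, with the 95% interval within 2-fold. Partly recovered meant called below empty vector and above ZBTB18. Named genes were the 6 of each class lowered most by ZBTB18 at 5 CPM or more in empty vector, the 8 highest and 8 lowest at 5 CPM or more whose libraries did not overlap, up to 4 per list by adjusted p, and the pathway lists; other genes (among them Rap1gap2, Gsn, Bgn, Spp1, Fstl1, Col5a3 and those given for TGF-β1 against vehicle) were chosen after their values were seen. Members and lists were chosen with earlier results of these data known. Over genes, deviations of same-numbered libraries from their group means correlated at 0.48, 0.23 and 0.54 between vehicle and TGF-β1 and at 0.2, 0.13 and 0.11 between empty vector and vehicle, above 0.1 in every pair, so these groups were treated as paired by number, and a fit with the pairs as a block was added after seeing the data. Between empty vector and TGF-β1 the values were 0.02, 0.06 and 0.06. The scripts were tested on simulated data. CPM precision follows the library totals given above. A few genes chosen by this rule are not reported here.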

Additional observations from a re-analysis of the deposited data

How the results depend on the processing

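Not recovered stayed the most frequent class of lowered genes under every alternative except the choice against the parental line. DESeq2's Wald test, its size factors and leaving out parental replicate 1 (chosen after seeing the data) kept every class count within 1.5 times. Leaving out single libraries gave 73 to 155 lowered genes that could not be placed, the lowest without ZBTB18 replicate 1. Empty vector and TGF-β1 libraries of the same number did not deviate together; with the replicate number as a block over all libraries 3663 genes were higher and 3754 lower than empty vector, with 746 lowered by ZBTB18. With empty vector and vehicle paired as a block no vehicle class count moved by over 1.5 times (472 lowered genes not recovered). From vehicle to TGF-β1, 194 genes were higher and 101 lower, 21 and 6 of them lowered by ZBTB18; its alternatives were all chosen after seeing the data. DESeq2 gave 350 and 244 (12 lowered genes lower), no filter 382 and 251 (44 and 24), limma on log2(TPM + 1) 70 and 42 and on log2(TPM + 0.1) 59 and 22, both with 0 lowered genes lower (33 and 35 at an unadjusted p under 0.05), and the block over all libraries 10 lowered genes lower. Leaving out single vehicle, TGF-β1, empty vector or ZBTB18 libraries gave 52 to 167 higher and 19 to 83 lower. Of the lowered genes these were 9 to 18 and 1 to 5. Without parental replicate 1 there were 227 higher and 109 lower (22 and 9 lowered genes). The pair block of vehicle and TGF-β1 kept the counts of this step within 1.5 times of the main fit. Of the genes named for that step, it ended only the calls of Jag2 and Afap1l2. Without a filter on low counts 81 lowered genes exceeded and 97 recovered in part; with 1 CPM in 3 libraries 53 lowered and 36 raised genes could not be placed. With 9 libraries alone 97 lowered and 66 raised genes recovered in part and 71 lowered genes could not be placed. On log2(TPM + 1), 406 genes were 2-fold higher and 438 lower; 263 were lowered (7 exceeded, 27 returned, 27 partly, 185 not, 17 not placed) and 142 raised (15 exceeded, 25 partly, 64 not, 3 not placed). On log2(TPM + 0.1) 24 lowered and 31 raised genes exceeded. Called by any fold, 2235 were lowered (111 exceeded, 485 returned, 97 partly, 1428 not) and 2153 raised (144, 613, 75 and 1218). At 4-fold, 364 were lowered (17 exceeded, 6 returned, 36 partly, 252 not, 53 not placed) and 147 raised (11, 4, 19, 79 and 34). Within 1.5-fold, 19 lowered and 13 raised genes returned. Against the parental line 2076 were lowered (302 exceeded, 464 returned, 752 not placed) and 1016 raised (254, 260 and 140). Against both references 470 were lowered (275 not recovered) and 289 raised (140 not recovered, 51 not placed). Changed thresholds and references alter these counts by construction; for the other alternatives the cause was not tested. Genes under a few CPM are limited by counting error.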
